A study of Homo sapiens with 6 samples.

Results

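The replication-dependent histone genes are the families that encode the linker histone H1 and the core histones H2A, H2B, H3 and H4 in the histone clusters on chromosomes 6 and 1. Members were chosen by gene symbol alone (H1-1 to H1-6 and all numbered H2AC, H2BC, H3C and H4C genes), which gave 66 of the 20388 genes in the expression table. They comprised 6 H1, 16 H2A, 17 H2B, 13 H3 and 14 H4 genes, 55 on chromosome 6 and 11 on chromosome 1. The cells were MHCC-97H, a human hepatocellular carcinoma line in wide use, labelled wild type, with 3 samples exposed to 2 µM GK921 for 24 h and 3 exposed to the solvent DMSO for 24 h. GK921 is an inhibitor of transglutaminase 2 (TGM2), an enzyme that joins proteins through their glutamine residues and can also couple serotonin to them, as on histone H3. The study asked how inhibition of this enzyme altered the transcriptome of the line. The labels do not state whether replicates were separate cultures. All p-values below therefore rest on a spread that could be purely technical.

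Most transcripts of these genes are made in S phase, when newly copied DNA must be packed into nucleosomes. An octamer of H2A, H2B, H3 and H4 forms the nucleosome core, and H1 binds the DNA between cores. The typical histone mRNA has no poly(A) tail: it is cut just behind a short stem-loop that the stem-loop binding protein SLBP holds, and it is degraded quickly when DNA synthesis stops. Some members also have longer, polyadenylated transcripts that run past the stem-loop and are known from cells that have stopped dividing. Total RNA was extracted for these libraries, and the sources used here do not say whether poly(A) RNA was then selected or ribosomal RNA removed.

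Levels are in FPKM, which scales fragments to the length of the gene and to the fragment total of the library, so levels of different genes can be compared per length. Across tested genes, r was 0.993 to 0.995 within a group and 0.914 between groups. For the histone genes, low values were whole multiples of 1 fragment over the coding length, which put the assigned totals at an estimated 9370000, 9424000 and 10524000 fragments in the GK921 libraries and 12210000, 11506000 and 10634000 in the DMSO libraries. One fragment of an H4 gene was then worth 0.305 to 0.342 FPKM with GK921 and 0.263 to 0.301 FPKM with DMSO. Of 10 hepatocyte and liver tumour markers, only the keratins KRT8 and KRT18 reached a mean of 1 FPKM. The other 8 markers, albumin and alpha-fetoprotein included, stayed under 1 FPKM in every library, so few hepatocyte transcripts were measurable in this line. Of 11 blood, endothelial and fibroblast markers, 4 reached 1 FPKM. The fibroblast marker DCN averaged 0.953 FPKM with GK921 and 8.34 FPKM with DMSO, and the myeloid marker LYZ 2.03 FPKM with GK921 and 0.303 FPKM with DMSO. CD68, a lysosomal protein also made outside macrophages, averaged 99.7 FPKM with GK921 and 109 FPKM with DMSO, and the endothelial marker PECAM1 3.94 FPKM with GK921 and 3.83 FPKM with DMSO. CDH5 was listed at 0 throughout and the other 6 stayed under 1 FPKM in every library. The 11 markers summed to 107 FPKM with GK921 and 122 FPKM with DMSO, and their part in the histone values was not tested.

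Sequence shows which members share the classic 3′ end and which share a start region. The 16-base stem-loop, a stem of 6 base pairs around a loop of 4 bases, was found in annotated transcripts (GENCODE release 29) of 25 of the 62 members with a transcript there. The models of many of the other 37 end at the coding end. The forms are written as DNA with the stem in capitals and the loop in lower case. The first was found in 13 H2A, H2B and H3 genes on both chromosomes, H2BC21 and H2AC6 among them. The next was found in 4 H2B and H3 genes on chromosome 6, including H2BC4 and H2BC5. The following pair belongs to H4 genes, 4 on chromosome 6 for one and 3 on chromosomes 1 and 6 for the other. The last was found in H2AC11.
Stem-loop of 13 genes: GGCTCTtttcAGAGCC
Stem-loop of 4 H2B and H3 genes: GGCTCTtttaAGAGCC
Stem-loop of 4 H4 genes: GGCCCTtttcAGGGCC
Stem-loop of 3 H4 genes: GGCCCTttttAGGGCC
Stem-loop of H2AC11: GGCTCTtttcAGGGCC

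In 19 of those 25 members an annotated transcript continued more than 100 bases past the stem-loop. The continuation was 1729 bases in H2BC21, 1655 bases in H4C8 and 1128 bases in H2AC6. The gene length that matched the deposited values was that of the coding part, and whether fragments of such an extension were counted is not known.

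Promoter windows of 250 bases before to 50 bases after the start (RefSeq, GRCh38.p14) were matched for 61 of the 66 members. Capitals mark the octamer ATTTGCAT, the TATA box TATAAA and the CCAAT box CCAAT on either strand, with overlapping matches merged. H2BC21 (minus strand, chr1:149886633-149886932) is shown because the window also holds the start of H2AC20, the one member called lower. H2BC4 (minus strand, chr6:26123877-26124176) is shown because it shares its window with the start of H2AC6, the most abundant member after GK921. H2BC12 (minus strand, chr6:27146809-27147108) was the most abundant member in DMSO, and H2BC15 (plus strand, chr6:27838319-27838618) and H1-2 (minus strand, chr6:26056421-26056720) hold neither the octamer nor the TATA box in these letters.
H2BC21: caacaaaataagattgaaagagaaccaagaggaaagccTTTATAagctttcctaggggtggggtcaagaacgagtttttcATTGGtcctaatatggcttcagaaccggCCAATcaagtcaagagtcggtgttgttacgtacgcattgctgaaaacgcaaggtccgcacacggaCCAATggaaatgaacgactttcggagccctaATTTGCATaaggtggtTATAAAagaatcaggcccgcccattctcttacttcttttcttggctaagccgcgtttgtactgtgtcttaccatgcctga
H2BC4: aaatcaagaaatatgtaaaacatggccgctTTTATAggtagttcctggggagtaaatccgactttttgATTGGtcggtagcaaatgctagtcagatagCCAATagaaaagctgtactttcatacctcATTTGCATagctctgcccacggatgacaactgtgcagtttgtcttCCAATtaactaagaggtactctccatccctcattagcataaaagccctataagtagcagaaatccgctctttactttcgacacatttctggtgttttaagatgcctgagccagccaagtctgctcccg
H2BC12: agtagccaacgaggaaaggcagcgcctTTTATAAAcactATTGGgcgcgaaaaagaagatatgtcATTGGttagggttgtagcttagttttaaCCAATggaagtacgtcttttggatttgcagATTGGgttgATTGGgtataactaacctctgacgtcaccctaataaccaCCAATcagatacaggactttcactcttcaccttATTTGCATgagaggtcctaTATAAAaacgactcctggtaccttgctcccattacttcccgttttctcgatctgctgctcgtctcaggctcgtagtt
H2BC15: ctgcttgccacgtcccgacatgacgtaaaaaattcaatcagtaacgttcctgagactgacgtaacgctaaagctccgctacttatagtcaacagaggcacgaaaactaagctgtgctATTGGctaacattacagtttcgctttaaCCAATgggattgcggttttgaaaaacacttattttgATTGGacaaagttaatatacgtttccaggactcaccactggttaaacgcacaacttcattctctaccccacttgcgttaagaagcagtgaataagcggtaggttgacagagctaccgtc
H1-2: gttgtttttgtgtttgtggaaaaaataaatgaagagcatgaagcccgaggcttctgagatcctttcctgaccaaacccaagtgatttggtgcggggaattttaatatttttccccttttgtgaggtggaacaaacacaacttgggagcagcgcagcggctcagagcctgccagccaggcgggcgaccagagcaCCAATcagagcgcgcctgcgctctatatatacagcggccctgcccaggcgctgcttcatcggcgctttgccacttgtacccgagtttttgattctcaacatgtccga

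The octamer, the letters that POU2F1 and related factors bind, was present in 26 of 61 windows (42.6%), against 1.80% of all 27305 promoter windows. It was present in 14 of 17 H2B windows, 11 of 15 H2A windows, 1 of 11 H3 windows and no H1 or H4 window. The H3 window is that of H3C4, which has the same start and the same letters as the H2AC7 window. Windows of back-to-back genes overlap, so 1 site can count for both genes, as in H2BC21 and H2AC20. These counts are therefore not counts of separate sites. TATAAA was present in 67.2% of member windows, against 11.95% of all windows. CCAAT was present in 85.2% of member windows, against 35.7% of all, and in 3 of 12 H4 windows. TTTCCCGC, a form of the E2F site, was present in 1.64% of member windows, against 1.66% of all. In H2BC21 the octamer began at position -46 and the nearer TATA box at position -30 from the start. The median log2 change was 2.32 for the 13 tested members with the octamer and 2.05 for the 16 without it. Among the tested H2B genes it was 2.81 for the 7 with the octamer and 2.99 for the 2 without it, the other order. For TATAAA it was 1.97 in the 18 tested members with the letters and 2.47 in the 11 without them. In some windows the letters lay near the start of the neighbour instead. The only match was at position -220 in H2BC4 and at -206 in H2AC8. The split therefore does not separate genes with and without a TATA box of their own. None of these differences was tested.

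The histone transcripts measured in these libraries were more abundant after GK921 in each class. Whether those without a poly(A) tail were captured is not known, so the sums need not follow total histone mRNA. Summed over all 66 genes, the level was 722, 823 and 802 FPKM in the GK921 libraries, against 126, 132 and 119 FPKM in the DMSO libraries. The mean was 782 ± 53.3 FPKM with GK921 and 126 ± 6.82 FPKM with DMSO (SD, n = 3 each), a ratio of 6.23. These transcripts made up 0.0868%, 0.1001% and 0.0973% of the FPKM total of the GK921 libraries, against 0.0151%, 0.0159% and 0.0142% of that of the DMSO libraries. The groups lay far apart compared with the spread within each. Since these are bulk samples scaled to the total, more RNA per cell and a larger share of expressing cells cannot be told apart.

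**Figure D1:**
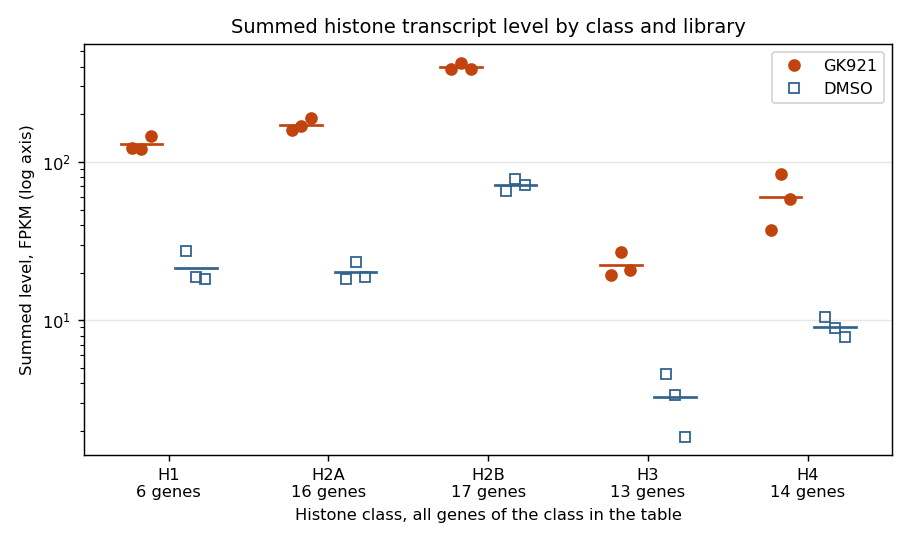
Summed FPKM of all members of each histone class in each library on a log axis, with GK921 (filled circles) left of DMSO (open squares) and lines at the group means of 3 libraries. In each of the 5 classes the 3 GK921 libraries lie above the 3 DMSO libraries.

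The H2B genes held the largest share of the histone total in both groups, 51.0 ± 2.46% with GK921 and 57.2 ± 4.55% with DMSO. Their sum was 398 ± 21.6 FPKM with GK921 and 71.8 ± 6.10 FPKM with DMSO. The H2A sum was 172 ± 15.7 FPKM with GK921 and 20.0 ± 2.79 FPKM with DMSO, a ratio of 8.58. The H1 sum was 130 ± 14.3 FPKM with GK921 and 21.4 ± 5.06 FPKM with DMSO, a ratio of 6.06. The H3 and H4 genes, although they encode equal parts of the nucleosome, had far lower transcript levels per length than H2B. The H3 sum was 22.4 ± 4.17 FPKM with GK921 and 3.27 ± 1.38 FPKM with DMSO, a ratio of 6.84. The H4 sum was 59.7 ± 23.2 FPKM with GK921 and 9.08 ± 1.35 FPKM with DMSO, a ratio of 6.57. Part of the H4 spread came from H4C15 in 1 GK921 library. Without H4C15 the H4 sum was 50.3 ± 11.9 FPKM with GK921 and 8.79 ± 1.54 FPKM with DMSO.

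Single genes were tested where the mean over the 6 libraries was at least 1 FPKM, with limma on log2(FPKM + 1) and Benjamini-Hochberg adjustment over all tested genes. Genes with an adjusted p under 0.05 were called. Of the 66 members, 29 passed the limit, 25 of these were called higher and 1 lower, and 3 were not called. Over all genes, 46.8% of 11573 tested genes were called higher and 29.2% lower, 75.9% in either direction. The GK921 libraries all lay above the DMSO libraries for 26 members and all below for 1, against 48% and 30% of all tested genes, or 78% in either direction. Of the 29 members, 15 passed only through their GK921 values and so had to differ, and their calls are given as a description. The other 14 had a DMSO mean of at least 1 FPKM, and 11 of them were called higher, 1 lower and 2 neither. Over all genes, 45.7% of the 11251 genes with such a DMSO mean were called higher and 30% lower. Among the 14 members with a DMSO mean of at least 1 FPKM, 9 were called with a log2 change over 2 and 11 with one over 1, against 1.12% and 8.77% of all genes with such a DMSO mean. Counting also the members that passed through GK921, 15 exceeded 2 and 24 exceeded 1 (1.41% and 9.87% of all tested genes). This wider count is a description only, because the added members had to differ.

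The median log2 change of the 29 tested members, the 15 that had to differ included, was 2.07, beside 0.16 for all tested genes. It was 2.61 for the 14 members with a DMSO mean of at least 1 FPKM. Log2 changes are GK921 minus DMSO and understate the change of genes near 0, because 1 FPKM was added to each value. With the libraries rescaled by median ratios, the median of all tested genes was 0.00 and that of the members 1.98. On that scaling 4211 genes of the table were called higher and 4377 lower, so the higher share of calls was 49.0%, against 61.6% as deposited.

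**Figure D2:**
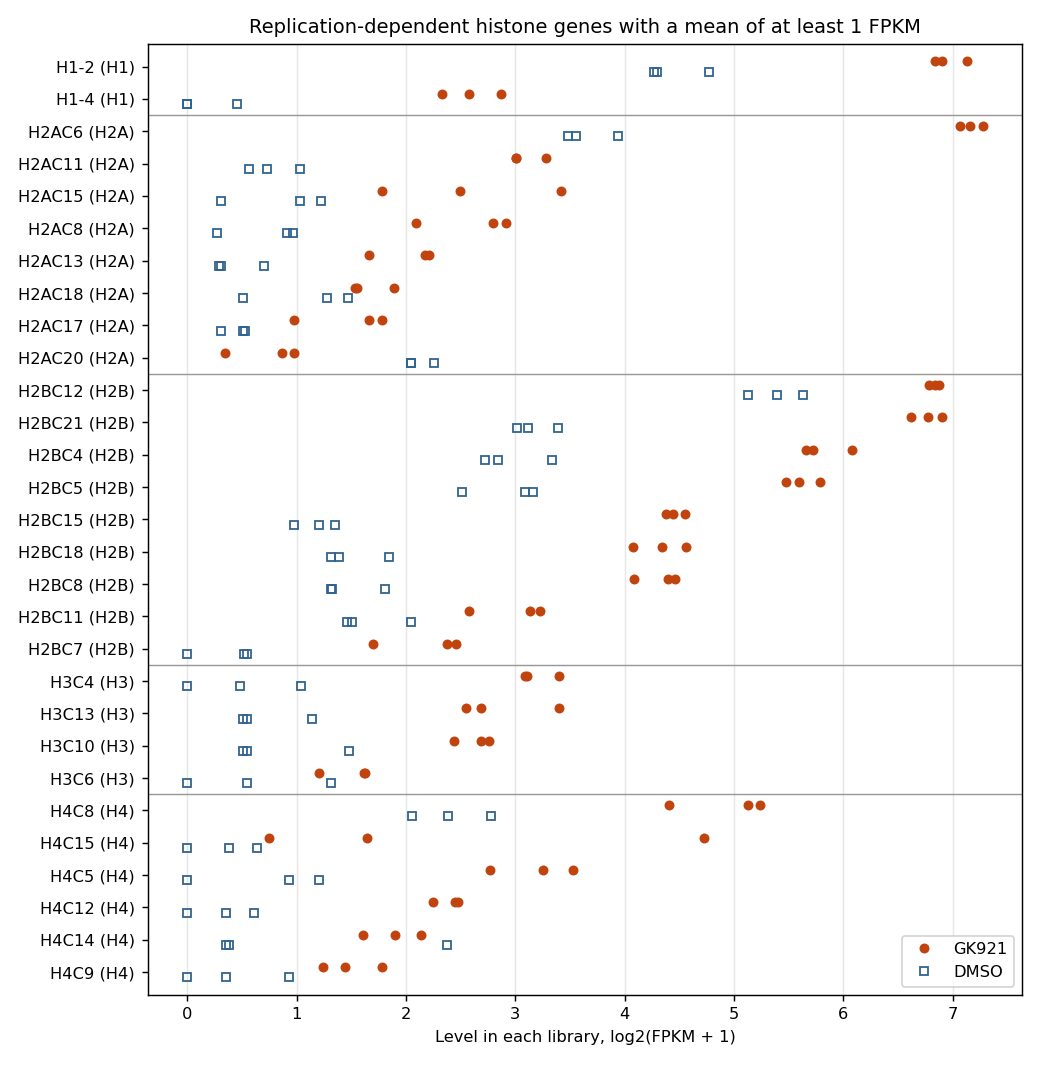
Level of each of the 29 tested histone genes in each library, as log2(FPKM + 1), grouped by class, with GK921 (filled circles) above DMSO (open squares). The 2 groups are separate for 27 genes and overlap for H4C14 and H3C6, and H2AC20 is the one gene with GK921 below DMSO.

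Of the 17 H2B genes, 9 were tested and all 9 were called higher, with a median log2 change of 2.81. Over all tested genes, 46.8% were called higher. The other 8 H2B genes were below the limit, 2 of them at 0 in every library. These did not all rise, as H2BC14 had its higher mean in DMSO. H2BC21 (chr1:149884459-149886682), an H2B gene known for a polyadenylated transcript, had 108, 119 and 97.2 FPKM in the GK921 libraries, against 9.46, 7.07 and 7.65 FPKM in the DMSO libraries. The 2 groups were far apart, and the log2 change of 3.60 ± 0.10 (SE) was the largest of any member (limma adjusted p = 6.89e-09). H2BC15 had 22.4, 19.8 and 20.7 FPKM with GK921, against 0.97, 1.55 and 1.30 FPKM with DMSO. Its log2 change was 3.28 ± 0.11 (adjusted p = 1.81e-08), although no polyadenylated form was listed for it.

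H2BC12 (chr6:27138293-27146858), the H2B gene with the highest DMSO level of all 66 members, had 110, 113 and 116 FPKM with GK921, against 34.0, 48.6 and 41.2 FPKM with DMSO. Its groups did not overlap, but its ratio of 2.74 was below that of every other tested H2B gene (log2 change 1.45 ± 0.11, adjusted p = 2.30e-06). H2BC12 ranked behind H2AC6 and H1-2 in the GK921 mean. H2BC4 had 49.6, 66.5 and 51.9 FPKM with GK921, against 5.59, 6.16 and 9.13 FPKM with DMSO (log2 change 2.85 ± 0.16). H2BC5 had 43.4, 47.3 and 54.1 FPKM with GK921, against 7.95, 7.53 and 4.69 FPKM with DMSO (log2 change 2.70 ± 0.16). Both are H2B genes with known polyadenylated transcripts, and in each the groups were far apart.

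The 4 other tested H2B genes had lower levels. H2BC18 had 15.9, 22.6 and 19.3 FPKM with GK921, against 2.60, 1.49 and 1.61 FPKM with DMSO (log2 change 2.81). H2BC8 had 21.01, 20.05 and 15.96 FPKM with GK921, against 1.5, 2.51 and 1.48 FPKM with DMSO (log2 change 2.83). H2BC18 shares a run of at least 100 identical bases with H2BC21, so fragments could have been assigned to either. H2BC11 had 8.35, 7.79 and 4.95 FPKM with GK921, against 1.75, 1.85 and 3.12 FPKM with DMSO (log2 change 1.31, adjusted p = 0.000383). H2BC7 had 2.24, 4.18 and 4.49 FPKM with GK921, against 0.43, 0.46 and 0 FPKM with DMSO (log2 change 1.82). All 4 had separate groups, and H2BC7 passed the limit through its GK921 values.

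Genes for H2A were less uniform: 6 of 8 tested members were called higher and 1 lower, against 46.8% and 29.2% of all tested genes. The remaining 1 was not called, and the median log2 change of the 8 was 1.65. Among the 3 with a DMSO mean of at least 1 FPKM, H2AC6 was called higher, H2AC20 lower and H2AC18 neither. The median log2 change of these 3 was 0.57. H2AC6 (chr6:26124172-26124690), an H2A gene with a known polyadenylated form, had 133, 142 and 154 FPKM with GK921, against 10.2, 14.4 and 10.8 FPKM with DMSO. It was the most abundant member after GK921, and behind H2BC12 and H1-2 in DMSO, with a log2 change of 3.50 ± 0.11 (adjusted p = 1.20e-08). H2AC20 (chr1:149886918-149887411) was the opposite case. It had 0.27, 0.82 and 0.97 FPKM with GK921, against 3.78, 3.12 and 3.13 FPKM with DMSO. These are 1, 3 and 4 fragments with GK921 against 18, 14 and 13 fragments with DMSO. All GK921 libraries were below all DMSO libraries (log2 change -1.39 ± 0.18, adjusted p = 0.000114).

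The remaining H2A genes stayed under 10 FPKM in every library. H2AC11 had 7.06, 7.02 and 8.70 FPKM with GK921, against 1.04, 0.66 and 0.48 FPKM with DMSO (log2 change 2.32). H2AC15 had 4.62, 2.43 and 9.67 FPKM with GK921, against 1.04, 1.33 and 0.24 FPKM with DMSO (log2 change 1.71). Its GK921 libraries spread widely and still lay above DMSO. H2AC8 had 3.26, 5.94 and 6.53 FPKM with GK921, against 0.21, 0.88 and 0.96 FPKM with DMSO (log2 change 1.88). H2AC13 had 2.17, 3.51 and 3.63 FPKM with GK921, against 0.63, 0.22 and 0.24 FPKM with DMSO (log2 change 1.58). All 4 genes were called higher, each with separate groups, and all 4 passed the limit through GK921. H2AC17 had 2.44, 2.16 and 0.97 FPKM with GK921, against 0.42, 0.44 and 0.24 FPKM with DMSO (log2 change 1.03, adjusted p = 0.00244). It was called higher and also passed the limit through GK921. H2AC18 had 2.72, 1.89 and 1.93 FPKM with GK921, against 0.42, 1.77 and 1.43 FPKM with DMSO. Its groups were barely separate and it was not called (adjusted p = 0.0605), although without DMSO replicate 2 it was (log2 change 0.77, adjusted p = 0.0246). Without DMSO replicate 1 its log2 change was 0.28. The promoter window of H2AC18 holds nearly the same letters as that of H2AC19. Neither gene had a GENCODE transcript, so shared runs between them were not checked and their fragments could have been confused.

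The tested H3 genes all passed the limit through GK921 and so had to differ. As a description, 4 of 4 were called higher, against 46.8% of all tested genes. H3C4 had 7.53, 9.55 and 7.63 FPKM with GK921, against 0.40, 1.06 and 0 FPKM with DMSO (log2 change 2.69 ± 0.24, adjusted p = 8.21e-06). H3C13 had 5.45, 9.55 and 4.85 FPKM with GK921, against 1.2, 0.42 and 0.46 FPKM with DMSO (log2 change 2.15). H3C13 shares long identical runs with H3C14 and H3C15, which were at or near 0 in every library. H3C10 had 4.42, 5.42 and 5.78 FPKM with GK921, against 1.79, 0.42 and 0.46 FPKM with DMSO (log2 change 1.78). H3C6 had 1.30, 2.06 and 2.08 FPKM with GK921, against 0, 1.48 and 0.46 FPKM with DMSO. Its groups overlapped and its call was fragile: the log2 change of 0.86 ± 0.31 had an adjusted p of 0.0287. Leaving out GK921 replicate 2 or 3 (log2 change 0.79 each) or DMSO replicate 1 (0.55) or 3 (0.82) ended the call, with adjusted p between 0.0695 and 0.0855, as did a pseudocount of 0.1, no expression limit, quantile normalization and limma's treat against a 1.2-fold change, with adjusted p between 0.0520 and 0.104.

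Of 6 tested H4 genes, 4 were called higher. H4C5, H4C12, H4C9 and H4C15 passed the limit only through GK921. Of the 2 with a DMSO mean of at least 1 FPKM, H4C8 was called higher and H4C14 was not called. Over all genes with such a DMSO mean, 45.7% were called higher. H4C8 (chr6:26285126-26285534), the H4 gene with the highest level in both groups, had 20.2, 36.7 and 34.1 FPKM with GK921, against 3.15, 5.85 and 4.22 FPKM with DMSO. The log2 change was 2.52 ± 0.24 (adjusted p = 1.15e-05). H4C5 had 5.82, 10.5 and 8.52 FPKM with GK921, against 1.31, 0 and 0.90 FPKM with DMSO (log2 change 2.47). In both genes the groups were separate. H4C12 had 4.45, 3.74 and 4.57 FPKM with GK921, against 0.53, 0.28 and 0 FPKM with DMSO (log2 change 2.07). H4C9 had 1.71, 1.36 and 2.44 FPKM with GK921, against 0, 0.28 and 0.90 FPKM with DMSO (log2 change 1.06, adjusted p = 0.00415). H4C9 lies inside the annotated span of H2BC12, so without strand the 2 genes' fragments could be confused.

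The other H4 genes, H4C14 and H4C15, are on chromosome 1 and share identical runs, so their fragments could have been assigned to either. H4C15 had 0.68, 25.5 and 2.13 FPKM with GK921, against 0, 0.56 and 0.30 FPKM with DMSO. GK921 replicate 2 alone held 75 of its 84 fragments with GK921, and the log2 change of 2.03 ± 0.84 was not called (adjusted p = 0.0518). Without GK921 replicate 1 it was called (log2 change 2.85, adjusted p = 0.00977). H4C14 had 2.05, 3.40 and 2.74 FPKM with GK921, against 4.2, 0.28 and 0.30 FPKM with DMSO. Here DMSO replicate 1 lay above every GK921 library, and the groups overlapped (log2 change 0.85 ± 0.48, adjusted p = 0.140). Without DMSO replicate 1 the log2 change was 1.52 (adjusted p = 0.000181), and without DMSO replicate 2 or 3 it was 0.50 or 0.52 and not called.

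The linker histone genes were represented by 2 tested members, both called higher, of which H1-4 passed the limit only through GK921. Over all tested genes, 46.8% were called higher. H1-2 (chr6:26055740-26056470), a major somatic H1 gene, had 119, 114 and 139 FPKM with GK921, against 26.3, 18.7 and 18.3 FPKM with DMSO. It was the second most abundant member in both groups, with 2341 fragments summed over the GK921 libraries and 469 over the DMSO libraries (log2 change 2.51 ± 0.13, adjusted p = 2.40e-07). H1-4, another somatic H1 gene, had 4.04, 4.98 and 6.33 FPKM with GK921, against 0.37, 0 and 0 FPKM with DMSO. That is 100 fragments over the GK921 libraries against 3 over the DMSO libraries (log2 change 2.44 ± 0.19, adjusted p = 3.34e-06).

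**Figure D3:**
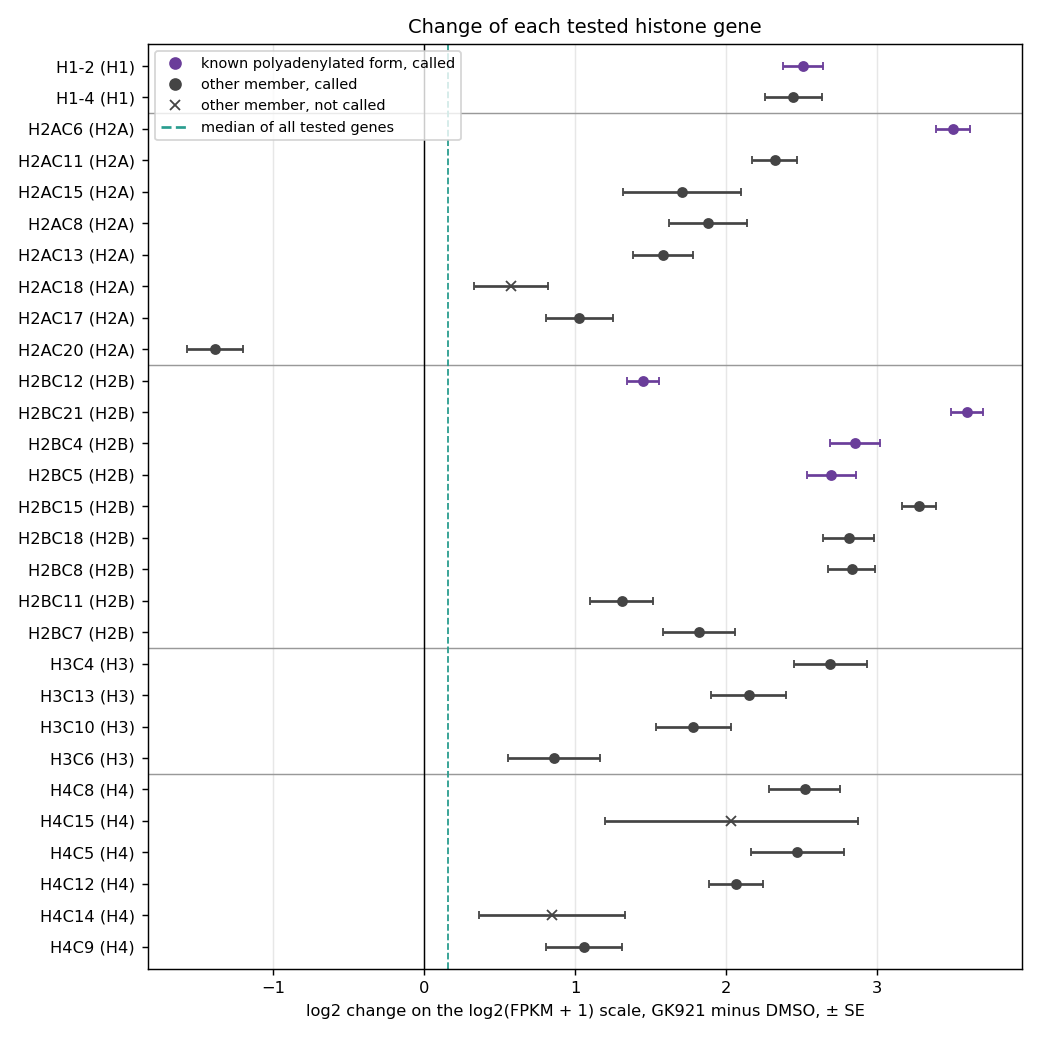
Log2 change (GK921 minus DMSO, on log2(FPKM + 1)) of each tested histone gene with its standard error, grouped by class; circles were called and crosses were not, purple marks the 6 genes with known polyadenylated forms, and the dashed line is the median of all tested genes at 0.16. H2BC21 has the highest value at 3.60 and H2AC20 the lowest at -1.39.

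Below the limit, 12 members were listed at 0 in all 6 libraries: H1-1, H2AC1, H2AC7, H2BC1, H2BC3, H3C3, H3C7, H3C11, H3C15, H4C6, H4C7 and H4C13. A further 25 were above 0 in at least 1 library with means of at most 0.832 FPKM. The GK921 mean was higher in 17 of these and the DMSO mean in 8. The GK921 libraries all lay above the DMSO libraries for 7 of the 25 (H2AC19, H2AC21, H1-6, H2BC6, H4C4, H3C12 and H2BC17). That share was 48% among all genes that passed the limit. H4C4 had 1.03, 0.68 and 2.74 FPKM with GK921, against 0.26, 0.28 and 0 FPKM with DMSO. H2BC17 had 0.84, 1.11 and 1.00 FPKM with GK921 and was listed at 0 in each DMSO library. H1-6, the testis H1, had 0.17, 1.02 and 0.30 FPKM with GK921 and was listed at 0 with DMSO. The other testis members, H2AC1 and H2BC1, were listed at 0 throughout. The other 18, whose groups overlapped, were H1-3, H1-5, H2AC4, H2AC12, H2AC14, H2AC16, H2BC9, H2BC10, H2BC13, H2BC14, H3C1, H3C2, H3C8, H3C14, H4C1, H4C2, H4C3 and H4C11. With no limit on the mean, all 25 entered the fit, and 7 were called higher, 0 lower and 18 neither. Over all 15942 genes of that fit, 5710 were called higher and 3471 lower, so the 7 calls do not set these members apart. The 7 called members were those whose groups did not overlap, with log2 changes between 0.32 for H3C12 (limma adjusted p = 0.0278) and 0.99 for H4C4 (adjusted p = 0.0204). Since 1 fragment is a large part of such values, their sizes are uncertain.

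Calls were also set out by cluster. Of 55 genes on chromosome 6, 22 were tested and 22 were called higher, with a median log2 change of 2.19. Of these 22, 13 passed only through GK921, and the 9 with a DMSO mean of at least 1 FPKM were all called higher, against the 45.7% given above. Of 11 genes on chromosome 1 (chr1:149782689-149887965), 7 were tested: H2BC21, H2BC18 and H3C13 were called higher, H2AC20 lower, and H4C14, H4C15 and H2AC18 neither. Their median log2 change was 2.03, and 1.30 without GK921 replicate 2. Of the 5 with a DMSO mean of at least 1 FPKM, H2BC21 and H2BC18 were called higher, H2AC20 lower and H4C14 and H2AC18 neither. The summed level was 631 ± 43.7 FPKM with GK921 and 108 ± 7.84 FPKM with DMSO on chromosome 6, a ratio of 5.84. It was 151 ± 29.05 FPKM with GK921 and 17.7 ± 3.99 FPKM with DMSO on chromosome 1, a ratio of 8.57. The chromosome 1 sum with GK921 was mostly H2B, which reached 127 ± 12.7 FPKM with GK921 and 9.96 ± 1.85 FPKM with DMSO. The 4 H2A genes of chromosome 1 summed to 5.21 ± 0.300 FPKM with GK921 and 5.01 ± 0.517 FPKM with DMSO, whereas the 12 H2A genes of chromosome 6 summed to 167 ± 15.7 FPKM with GK921 and 15.02 ± 2.51 FPKM with DMSO. The difference between chromosomes was not tested.

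The chromosome 6 genes fall into 3 stretches separated by more than 300 kb. The largest (chr6:25726063-26285534) holds 34 genes, of which 12 were tested and 12 called higher, against 46.8% of all tested genes. Of these 12, 6 passed only through GK921. The other 6, with a DMSO mean of at least 1 FPKM, were called against 45.7% of all such genes. The stretch summed to 458 ± 39.6 FPKM with GK921 and 58.1 ± 4.498 FPKM with DMSO. The middle stretch (chr6:27132316-27147562) holds 5 genes around H2BC12 and H2BC11. It had the lowest ratio, 2.91, at 130 ± 2.95 FPKM with GK921 and 44.7 ± 7.27 FPKM with DMSO. Its share of all member FPKM was 16.6 ± 0.860% with GK921 and 35.6 ± 5.45% with DMSO, and H2BC12 made up most of it in both groups. The last stretch (chr6:27807479-27893891) holds 16 genes, of which 6 were tested and 6 called higher. Of these 6, 5 passed only through GK921 and so had to differ (H2BC15 was the exception), so the count does not describe the stretch. It summed to 43.3 ± 4.08 FPKM with GK921 and 5.21 ± 1.18 FPKM with DMSO.

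Many H2A and H2B genes start back to back, and 12 pairs had starts less than 300 bases apart. In 5 pairs both genes were called higher: H2BC4 with H2AC6, H3C4 with H2BC7, H2BC8 with H2AC8, H2BC11 with H2AC11, and H2AC15 with H2BC15. In 4 pairs one gene was called higher and the other was below the limit, as with H2BC12 at a GK921 mean of 113 FPKM and its neighbour H2AC12 at 0.273 FPKM. In 2 pairs both were below the limit. H2BC21 and H2AC20, whose starts are 236 bases apart in the promoter window printed for H2BC21, were the one pair called in opposite directions. H2BC21 averaged 108 FPKM with GK921 and 8.06 FPKM with DMSO, while H2AC20 averaged 0.687 FPKM with GK921 and 3.34 FPKM with DMSO. In the pair H2BC4 and H2AC6, 246 bases apart, the means were 56.0 and 143 FPKM with GK921, against 6.96 and 11.8 FPKM with DMSO. H3C4 and H2AC7 have the same annotated start and share 510 annotated bases, and H2AC7 was listed at 0. The start region they share with H2BC7 was therefore counted in 2 pairs. It is among the 5 pairs through H3C4 and among the 4 through H2AC7.

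**Figure D4:**
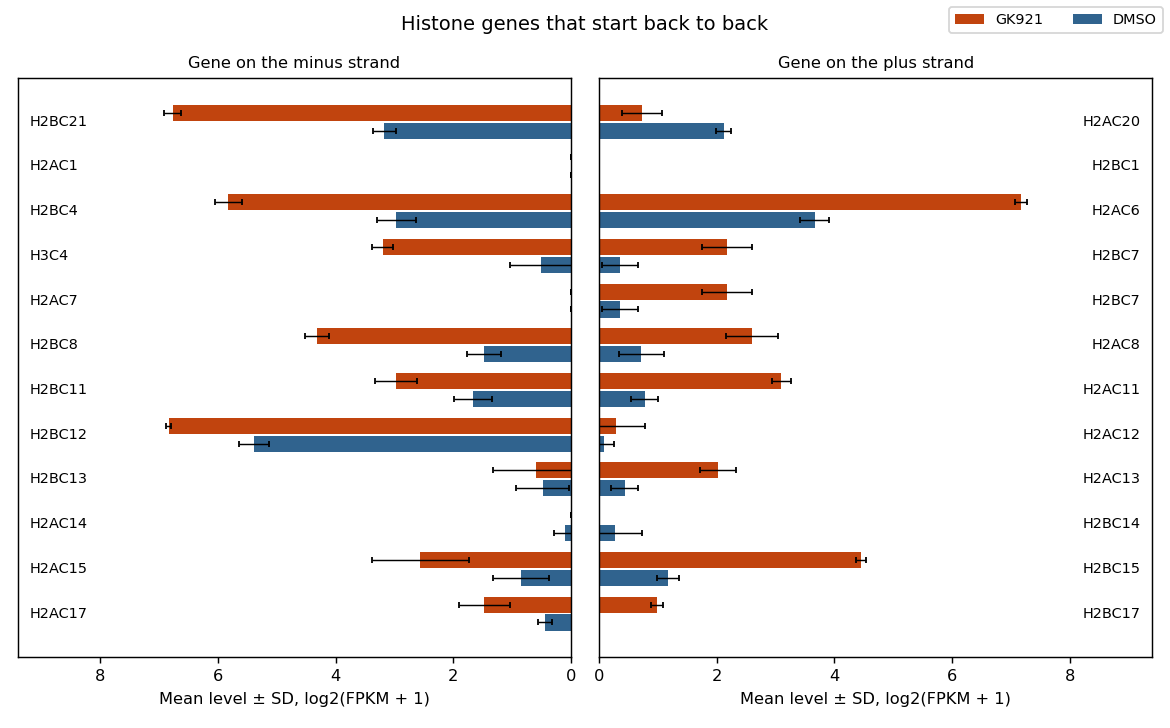
Mean level (log2(FPKM + 1), with SD over 3 libraries) of both genes of each back-to-back pair, minus-strand genes to the left and plus-strand genes to the right, with GK921 (orange) above DMSO (blue). H2BC21 is higher with GK921 at 108 FPKM while its partner H2AC20 is lower at 0.687 FPKM, and genes at 0 have no bar.

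The 6 members known to give polyadenylated transcripts outside S phase (H1-2, H2AC6, H2BC4, H2BC5, H2BC12 and H2BC21) held most of the histone signal in both groups. Their sum was 562, 602 and 613 FPKM in the GK921 libraries, against 93.5, 102 and 91.7 FPKM in the DMSO libraries. That was 75.8 ± 2.45% of all member FPKM with GK921 and 76.3 ± 1.97% with DMSO. The list was written with earlier results of these data known, so its direction is no independent evidence. All 6 were called higher, with a median log2 change of 2.78. The other 60 members summed to 190 ± 30.8 FPKM with GK921 and 29.8 ± 2.98 FPKM with DMSO, a ratio of 6.38, beside a ratio of 6.18 for the listed 6. Of these 60, 23 were tested, 19 were called higher and 1 lower, and the median log2 change was 1.88. Of the 23, 15 passed the limit only through GK921 and so had to differ, whereas none of the listed 6 did. Over all tested genes, 46.8% were called higher and 29.2% lower.

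A wider grouping by annotation was also described. The 23 members with a RefSeq span or GENCODE transcript of at least 1000 bases summed to 608 ± 50.3 FPKM with GK921 and 91.0 ± 8.32 FPKM with DMSO, and the median log2 change of the 18 tested was 2.50. The 43 members with shorter models only summed to 174 ± 15.96 FPKM with GK921 and 34.6 ± 5.19 FPKM with DMSO, and the median of the 11 tested was 1.71. Both groups were higher after GK921, and the difference between them was not tested.

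Genes that work with these histones were taken as further lists. Their calls are to be read against all tested genes, of which 46.8% were called higher and 29.2% lower. Among 46 listed genes of S-phase DNA replication, 45 were called lower and 1 higher, with a median log2 change of -1.81. RRM2, a subunit of the enzyme that makes deoxynucleotides, had 3.14 ± 0.410 FPKM with GK921 and 59.3 ± 1.64 FPKM with DMSO (log2 change -3.87). GINS2, part of the replicative helicase, had 3.58 ± 0.742 FPKM with GK921 and 59.9 ± 8.08 FPKM with DMSO (log2 change -3.74). TOP2A, the topoisomerase of dividing cells, fell by 3.67 on the log2 scale and UHRF1, which reads hemimethylated DNA, by 3.31. RFC1, the large clamp loader subunit, was the one listed gene that rose, to 47.2 ± 1.75 FPKM with GK921, against 25.8 ± 0.708 FPKM with DMSO (log2 change 0.85).

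Of 27 tested genes of the machinery that cuts and degrades histone mRNA, 6 were called higher, 12 lower and 9 neither, with a median log2 change of -0.17. The 18 calls are to be read against the 75.9% of all tested genes called in either direction. SLBP, which binds the stem-loops printed above, had 69.3, 71.7 and 76.5 FPKM with GK921, against 92.3, 95.8 and 94.5 FPKM with DMSO (log2 change -0.37 ± 0.04, adjusted p = 5.28e-05). The Sm proteins SNRPF, SNRPE, SNRPB and SNRPG fell by 1.37, 0.93, 0.83 and 0.79 on the log2 scale. MIF4GD, which links SLBP to translation, rose by 0.87, and TUT4, a terminal uridylyltransferase, rose by 0.74. LSM10 (0.44), a subunit of the U7 particle, and ZNF473 (0.40) were also called higher, LSM10 not with median-ratio scaling (0.27, adjusted p = 0.0695). Tested against a 1.2-fold change with limma's treat, neither call held (adjusted p = 0.154 and 0.117).

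Of 15 tested genes of transcription at the histone locus body, the nuclear body that forms at histone clusters, 6 were called higher, 7 lower and 2 neither, with a median log2 change of -0.16. Beside these counts stand 46.8% of all tested genes called higher and 29.2% called lower. CCNA2, the S-phase cyclin, had 6.38 ± 0.635 FPKM with GK921 and 82.9 ± 3.53 FPKM with DMSO (log2 change -3.51). E2F1 fell by 2.46, the phosphatase CDC25A by 1.86 and the kinase CDK2 by 1.34. HINFP, a transcription factor of H4 genes, rose to 27.4 ± 1.73 FPKM with GK921, against 11.6 ± 0.755 FPKM with DMSO (log2 change 1.18). NPAT, the cyclin E-CDK2 substrate that activates histone genes, had 16.3, 16.4 and 13.7 FPKM with GK921, against 12.3, 13.1 and 11.97 FPKM with DMSO (log2 change 0.29, adjusted p = 0.0116). The NPAT call was lost with median-ratio scaling (log2 change 0.12, adjusted p = 0.211) and with treat (adjusted p = 0.583). CRAMP1 (0.41), YY1 (0.33) and GON4L (0.31) were also called higher, CRAMP1 not with quantile normalization (0.15, adjusted p = 0.196). With treat, none of these 3 calls held (adjusted p = 0.168, 0.279 and 0.357).

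**Figure D5:**
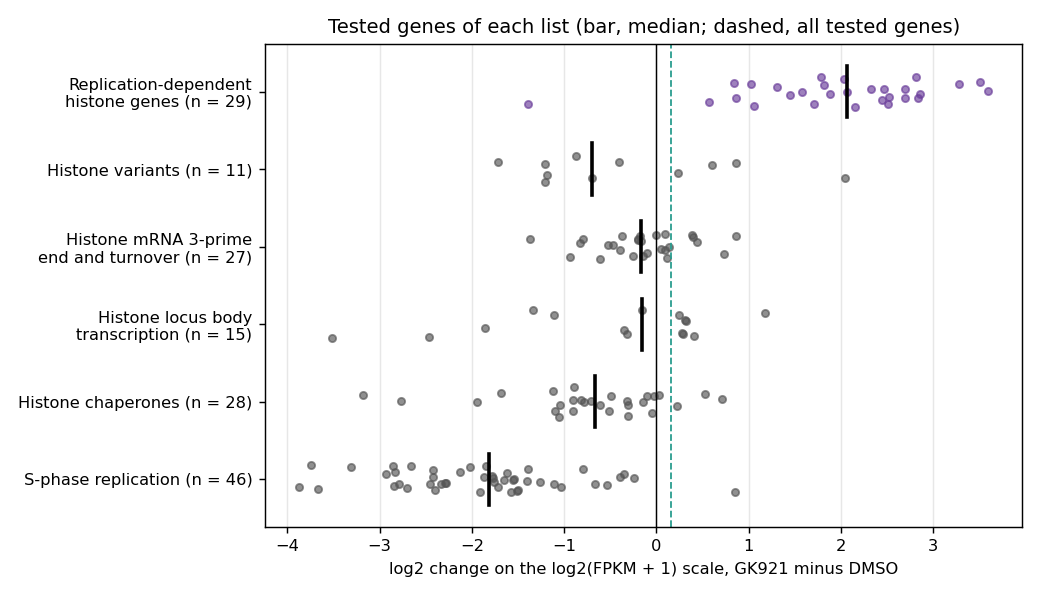
Log2 change (GK921 minus DMSO, on log2(FPKM + 1)) of each tested gene in 6 groups, with a bar at each median and the dashed line at the median of all tested genes. The medians run from 2.07 for the 29 replication-dependent histone genes to -1.81 for the 46 S-phase replication genes.

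Histone chaperones, which carry new histones to DNA, were mostly lower: of 28 tested genes, 21 were called lower, 3 higher and 4 neither, with a median log2 change of -0.66. Among all tested genes, 29.2% were called lower and 46.8% higher. ASF1B, an H3-H4 chaperone of proliferating cells, had 2.84 ± 0.348 FPKM with GK921 and 33.7 ± 3.38 FPKM with DMSO (log2 change -3.18). HJURP (-2.76), the chaperone of CENPA, CHAF1A (-1.94), a subunit of the replication-coupled CAF-1 complex, and TONSL (-1.69) also fell. UBN2 (0.71), SPTY2D1 (0.53) and UBN1 (0.23) were called higher, the last not with median-ratio scaling (log2 change 0.06) or treat (adjusted p = 0.971).

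A last list held mostly replication-independent histone genes, which are transcribed outside S phase too and have polyadenylated mRNAs as a rule. Its genes did not share one direction. Of 11 tested genes, 4 were called higher and 7 lower, with a median log2 change of -0.70, beside 46.8% and 29.2% of all tested genes. H4-16, an H4 gene outside the large clusters, had 4.11, 3.40 and 3.04 FPKM with GK921, against 0, 0 and 0.30 FPKM with DMSO (log2 change 2.04). It passed the limit through GK921. It is among the 4 genes called higher, but it is not taken here as a replication-independent variant. H2AJ rose by 0.60 on the log2 scale. H1-10 was called higher at 0.24, and that call was lost in 9 alternatives, among them treat (adjusted p = 0.857), median-ratio scaling (0.06) and leaving out GK921 replicate 1 (0.20) or 3 (0.21) or DMSO replicate 2 (0.26) or 3 (0.13). CENPA, the centromeric H3, fell by 1.72, H2AZ1 by 1.21, H2AX, the damage-marked H2A, by 1.21, and the H3.3 genes H3-3A and H3-3B by 1.19 and 0.40. H2AZ1 averaged 415 ± 29.2 FPKM with GK921 and 958.5 ± 16.05 FPKM with DMSO. H3-3B averaged 605 ± 10.2 FPKM with GK921 and 800.1 ± 13.5 FPKM with DMSO. H2AZ1 and H3-3B were each more abundant per length than any replication-dependent gene in either group.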

How the data were processed

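RNA was sequenced in 6 libraries of MHCC-97H cells, 3 with GK921 and 3 with DMSO, grouped by title and treatment label. The authors deposited FPKM per gene symbol and library, per the file headers. Per the submitters' processing notes, the tools were HISAT2, featureCounts, edgeR and FastQC 0.11.5 and the build hg38, without roles. The sources used here do not give the annotation, read totals, strandedness or handling of shared reads. Since FPKM is scaled to each library's total, a change in RNA per cell is not visible in it.

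Deposited values were tested as log2(FPKM + 1) with limma 3.58.1 (R 4.3.3). A gene entered the test if its mean over all 6 libraries reached 1 FPKM. The model held treatment alone, its variances were moderated with an intensity trend, and p-values were adjusted by Benjamini-Hochberg, with calls at 0.05. The procedure was tested on simulated data. Every member was accounted for: those tested were named with values, the others with their range or as listed at 0. Of the other lists, up to 4 called genes per direction and a few standard genes were named. One gene that this rule would name is not reported here. Members and lists were chosen with earlier results of these data known, so no list was tested.

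Fragments per gene were estimated from FPKM, the coding length in GENCODE 29 and a total fitted per library to H2A, H3 and H4 values under 8 FPKM, all of which came out whole within 0.01 FPKM. Of the H1 and H2B values, not used in that fit, 90% to 100% came out whole in each library. These estimates describe depth and entered no test. Spans and promoters came from RefSeq (GRCh38.p14), transcripts from GENCODE 29 (GRCh38). Of 62 members with a transcript, 15 share a run of at least 100 bases with another member, and 7 members overlap another. Alternatives were the pseudocount, the expression limit, scaling, the replicate block, no trend, a test against a 1.2-fold change (treat), and each library left out.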

Additional observations from a re-analysis of the deposited data

How the results depend on the processing

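Members called higher numbered 23 to 31 in every alternative but one, beside 25 in the comparison as reported. With a limit of 5 FPKM, which left 10 members tested, 10 were called higher and 0 lower. Leaving out 1 library at a time gave 23 to 26 higher and 1 lower. No tested member and no other named gene changed its direction in any alternative, but with median-ratio scaling the median over all tested genes was 0.00 and lower calls outnumbered higher ones, 4377 against 4211. H3C6 was the one member whose call was lost, in 8 alternatives, and H4C14, H2AC18 and H4C15 were called in 1, 1 and 4 of them. Over all genes, treat left 3595 higher and 2135 lower, and it ended the calls of H3C6, H1-10, LSM10, ZNF473, NPAT, CRAMP1, YY1, GON4L and UBN1. Quantile normalization gave 4387 genes higher and 4071 lower (51.9% of calls higher) and 3 genes of the histone locus body higher.

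Median log2 changes moved with the pseudocount, as the scale itself does. With a pseudocount of 0.1 they were 2.90 for all tested members, 3.75 for H1, 2.72 for H2A, 3.30 for H2B, 2.92 for H3, 3.16 for H4, 2.88 on chromosome 6, 3.15 on chromosome 1, 2.93 for the 6 genes with polyadenylated forms and 2.90 for the others. With a pseudocount of 5 they were, in the same order, 1.01, 1.64, 0.69, 1.81, 0.90, 0.92, 1.06, 1.01, 2.33 and 0.81. With no expression limit, which adds members near 0, they were 0.96 for all members, 0.54 for H1, 0.83 for H2A, 1.45 for H2B, 0.32 for H3, 0.99 for H4, 0.99 on chromosome 6, 0.89 on chromosome 1 and 0.78 for the others. With a limit of 5 FPKM they were 2.82 for all members, 3.50 for H2A, 2.76 on chromosome 6, 3.20 on chromosome 1 and 2.82 for the others. Median-ratio scaling gave 2.67 for H2B and 2.61 for the 6 genes, and ratios of summed FPKM of 5.51 for all members, 4.91 for H2B and 5.17 on chromosome 6. Quantile normalization gave 2.61 for H2B, 1.96 on chromosome 6 and 2.63 for the 6 genes. With 1 library left out, the median ran between 2.05 and 2.37 for all members, 1.98 and 2.68 for H4, 2.10 and 2.45 on chromosome 6, 1.30 and 2.31 on chromosome 1, 2.72 and 2.85 for the 6 genes, and 1.87 and 2.13 for the others.

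Same-numbered GK921 and DMSO libraries did not deviate together (r = 0.031, 0.047 and -0.0021). These values show no pairing by number, but pairing with a small shared effect would look the same. With the replicate number as a block, 26 members were higher and 1 lower, and of all genes 5351 were higher and 3355 lower. Depth limits the low members most, since 1 fragment of an H4 gene is worth about 0.3 FPKM.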
